A study of Mus musculus with 14 samples.

Results

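The subject is a set of 10 genes whose products are widely used to recognise macrophages, followed here in RNA from sorted CD4+ T cells. The genes are Lyz2, Mmp12, C1qa, C1qb, C1qc, Adgre1, Csf1r, Itgax, Chil3 and Arg1. They were chosen by symbol, and all 10 were found among the 25017 gene entries of the count table. All 10 passed the filter on low counts, which left 13780 genes. The study profiled PSGL1lo and PSGL1hi CD4+ T cells (cells with low or high surface PSGL1, the P-selectin ligand) by bulk RNA sequencing in mice with chronic graft-versus-host disease (cGVHD) or without it. BALB/c recipients received T-cell-depleted bone marrow (TCD-BM) from B6 (C57BL/6) donors, and organs were taken 30 days after the transplantation (HCT). Recipients with cGVHD also received donor splenocytes and GVHD-free recipients did not, so that disease cannot be told apart from where the donor T cells came from. The 14 libraries form 7 groups of 2, namely PSGL1lo cells of GVHD-free spleen, and PSGL1lo and PSGL1hi cells of cGVHD spleen, cGVHD liver and cGVHD lung. All groups are donor-derived CD4+ T cells per the labels. The labels give neither the age of the animals nor whether the 2 libraries of a group came from separate animals. What the p-values weigh is thus the spread among these samples, possibly a technical one.

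Macrophages are tissue phagocytes that clear dying cells, present antigen and remodel matrix, and each organ holds its own kind: red pulp macrophages in spleen, Kupffer cells in liver and alveolar macrophages in lung. Many kinds of macrophage depend on the receptor CSF1R. Macrophages, though not every kind alike, are a major source of the complement protein C1q, which tags dying cells and immune complexes for uptake. In chronic graft-versus-host disease macrophages of donor origin are known to gather in affected organs and to take part in fibrosis. CD4+ T cells are not known as a source of C1q or of lysozyme, so these transcripts are unusual in a T cell sort.

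C1q is built from the chains encoded by C1qa, C1qb and C1qc, which lie next to each other in the order C1qb, C1qc, C1qa on chromosome 4 in RefSeq's mouse annotation. The promoter windows of a member pair of this locus and of Lyz2, Chil3 and Mmp12 are shown. The C1q chains moved together in the data below, and for Lyz2, Chil3 and Mmp12 both lung groups ranked above all the others. These lung-high genes did not move together in every comparison, since with disease Chil3 rose and Mmp12 fell. Each window holds the 250 bases before a RefSeq gene start in GRCm38.p6, printed 5′ to 3′ on the strand of the gene. RefSeq promoter sequence was used for 6 of the 10 genes. Capitals mark matches to any of 3 motifs searched on both strands: GAGGAAG for PU.1, the myeloid ETS factor, TTGCNNAA for C/EBP factors and TGANTCA for AP-1.
C1qb, chr4:136886201-136886450, minus strand: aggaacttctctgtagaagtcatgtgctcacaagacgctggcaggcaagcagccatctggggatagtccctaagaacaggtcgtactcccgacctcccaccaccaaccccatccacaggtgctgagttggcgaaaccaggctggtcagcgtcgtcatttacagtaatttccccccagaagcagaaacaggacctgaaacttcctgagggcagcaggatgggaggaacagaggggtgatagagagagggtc
C1qc, chr4:136892915-136893164, minus strand: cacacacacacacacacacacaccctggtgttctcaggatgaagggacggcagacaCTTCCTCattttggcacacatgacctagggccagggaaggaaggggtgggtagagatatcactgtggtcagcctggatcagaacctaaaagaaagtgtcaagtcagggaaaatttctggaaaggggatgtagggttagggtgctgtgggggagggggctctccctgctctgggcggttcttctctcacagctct
Lyz2, chr10:117282273-117282522, minus strand: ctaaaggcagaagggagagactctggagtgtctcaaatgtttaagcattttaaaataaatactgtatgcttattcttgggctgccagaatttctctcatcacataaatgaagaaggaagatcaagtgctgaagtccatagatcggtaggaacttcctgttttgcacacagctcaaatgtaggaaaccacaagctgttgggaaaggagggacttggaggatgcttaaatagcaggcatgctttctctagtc
Chil3, chr3:106167565-106167814, minus strand: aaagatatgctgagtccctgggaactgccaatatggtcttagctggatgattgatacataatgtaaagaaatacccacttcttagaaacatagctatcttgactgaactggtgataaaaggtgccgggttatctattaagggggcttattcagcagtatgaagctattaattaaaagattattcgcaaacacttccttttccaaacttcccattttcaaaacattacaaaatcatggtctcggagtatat
Mmp12, chr9:7344147-7344396, plus strand: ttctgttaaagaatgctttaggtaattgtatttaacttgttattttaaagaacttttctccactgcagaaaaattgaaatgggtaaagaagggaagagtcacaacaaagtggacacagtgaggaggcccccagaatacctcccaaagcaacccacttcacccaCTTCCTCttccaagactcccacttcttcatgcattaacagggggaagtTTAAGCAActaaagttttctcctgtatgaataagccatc
The C1qc window held a PU.1 match at 194 to 188 bases before the start. The Mmp12 window held a PU.1 match at 87 to 81 bases and a C/EBP match at 39 to 32 bases before the start, and a further Mmp12 start held an AP-1 match at 44 to 38 bases. Itgax held an AP-1 match at 56 to 50 bases before its start. The windows of C1qb, Lyz2 and Chil3 held none of these letters. Of 32851 windows of the same length, 10.6% held the PU.1 letters, 9.56% the C/EBP letters and 6.75% the AP-1 letters. A match is a description of the sequence and not a binding site.

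Total counts were 13222005 to 33532595 per library. Levels are in CPM, a gene's counts as a share of its library's total after adjustment by TMM factors of 0.899 to 1.06, and 3 counts, the most that a gene with 0 counts allows for, corresponded to 0.0859 to 0.223 CPM, counting error only. The 10 genes together made up 0.00207% to 0.185% of a library's counts. A list of 11 T cell identity genes, among them Cd4 and Cd3e, summed to 6705 to 12113 CPM and none of them was at 0 in any library. Spleen libraries carry one run of library numbers in the labels and liver and lung libraries another, so that spleen and the other organs cannot be told apart from the library series. Levels are therefore given side by side across that line without a test. The liver PSGL1lo libraries stood furthest apart from each other: their counts differed by a chi-square of 18.6 per degree of freedom, against 2.97 to 10.9 in the other groups. The sum of the 10 genes was 51.8 CPM in liver PSGL1lo replicate 1 and 20.1 CPM in replicate 2, and liver values below that move by over 1.5 times or change their call without one of these libraries are given without it as well. A digit in the library names goes with PSGL1hi titles in liver but with PSGL1lo titles in lung. The labels do not explain it, and the fractions here follow the sample titles.

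The summed level of the 10 genes was lowest in liver and highest in lung. It was 177 and 178 CPM in GVHD-free spleen, 235 and 239 CPM in cGVHD spleen PSGL1lo, and 493 and 534 CPM in cGVHD spleen PSGL1hi cells. It was 20.1 to 59.9 CPM in the 4 liver libraries and 1141 to 1853 CPM in the 4 lung libraries. These are bulk libraries, in which a change in the number of cells that carry a transcript and a change in the amount of RNA per cell cannot be told apart.

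The 10 genes did not follow a single pattern. C1qa, C1qb, C1qc, Csf1r and Arg1 were highest in spleen PSGL1hi cells, Lyz2, Chil3 and Mmp12 in lung, Adgre1 in GVHD-free spleen and Itgax in lung PSGL1hi cells. Levels per kilobase of exon allow a rough comparison between genes, since the merged exon lengths need not match the annotation used for counting. By this measure Itgax led in GVHD-free spleen with 14.7 CPM per kb, closely followed by Adgre1 with 13.97. C1qa led in cGVHD spleen, with 28.9 CPM per kb in PSGL1lo and 67.9 in PSGL1hi cells. Lyz2 led in liver, with 10.6 CPM per kb in PSGL1lo and 7.89 in PSGL1hi cells, and in lung, with 607 and 478 CPM per kb. The plot of levels by library shows these 3 shapes beside each other.

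**Figure D1:**
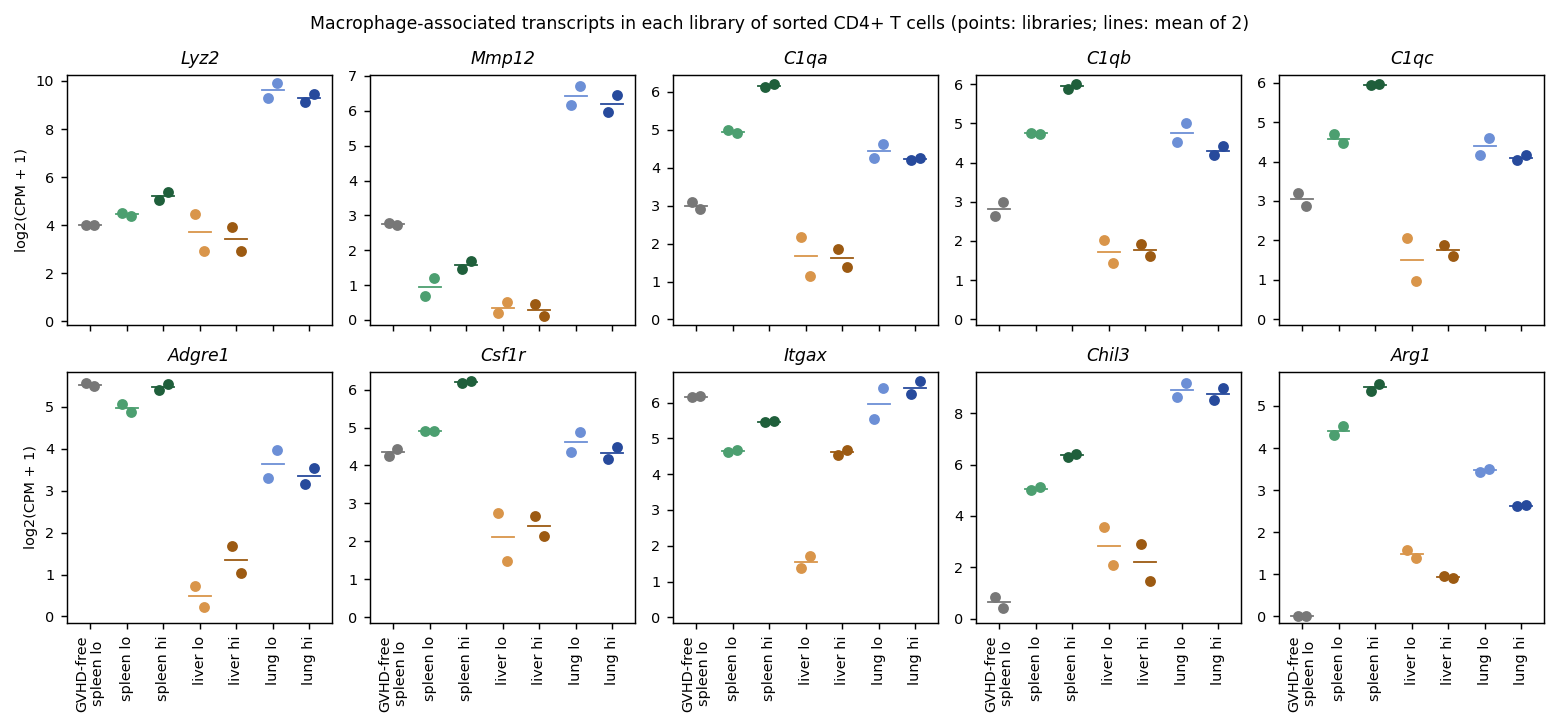
Levels of the 10 genes in the 14 libraries, as log2(CPM + 1) on a vertical axis scaled separately for each gene, with 1 point per library and a line at the mean of the 2 libraries of a group. The C1q genes and Csf1r peak in spleen PSGL1hi cells, Lyz2, Mmp12 and Chil3 peak in lung, and Arg1 is at 0 in both GVHD-free libraries.

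The C1q chains were present in every library. C1qa stood at 7.49 and 6.52 CPM in GVHD-free spleen, 30.7 and 29.4 in cGVHD spleen PSGL1lo, 68.4 and 72.8 in spleen PSGL1hi, 3.52 and 1.22 in liver PSGL1lo, 2.61 and 1.59 in liver PSGL1hi, 18.01 and 23.6 in lung PSGL1lo, and 17.6 and 18.3 in lung PSGL1hi. The spleen groups did not overlap each other, while the fractions overlapped in liver and in lung. C1qb stood at 5.18 and 6.95 CPM in GVHD-free spleen, 26.1 and 25.7 in cGVHD spleen PSGL1lo, 57.4 and 63.9 in spleen PSGL1hi, 3.06 and 1.68 in liver PSGL1lo, 2.79 and 2.07 in liver PSGL1hi, 21.9 and 31.3 in lung PSGL1lo, and 17.4 and 20.4 in lung PSGL1hi. Its order of groups matched that of C1qa except that lung PSGL1lo and spleen PSGL1lo, which overlapped in C1qb, changed places, as did the overlapping liver fractions. C1qc stood at 8.16 and 6.37 CPM in GVHD-free spleen, 25.0 and 21.2 in cGVHD spleen PSGL1lo, 60.5 and 61.3 in spleen PSGL1hi, 3.15 and 0.968 in liver PSGL1lo, 2.70 and 2.07 in liver PSGL1hi, 17.1 and 23.4 in lung PSGL1lo, and 15.4 and 17.0 in lung PSGL1hi. For all 3 chains the ratio of the highest to the lowest group mean lay between 25.6 and 33.6.

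The C1q chains kept closer proportions to each other than the other genes did to C1qa, but the proportions were not the same in every organ. The ratio of C1qb to C1qa counts was 0.839 to 0.877 in the cGVHD spleen libraries and 1.21 and 1.33 in the lung PSGL1lo libraries. The ratio of C1qb to C1qa counts ran from 0.691 to 1.38 over the 14 libraries with a median of 1.03, and that of C1qc to C1qa from 0.720 to 1.30 with a median of 0.913. Csf1r varied somewhat more against C1qa, with ratios of 0.949 to 3.19, the highest of them in GVHD-free spleen. Other genes varied far more: the ratio ran from 0.138 to 6.78 for Adgre1, 0.455 to 15.4 for Itgax, 0.464 to 40.9 for Lyz2 and 0.0549 to 27.7 for Chil3. Between C1qa and C1qc, Pearson's r of log2(CPM + 1) was 0.996 and Spearman's rho 0.991 over the 14 libraries. Between C1qa and Csf1r r was 0.960, and between C1qa and Lyz2 it was 0.456. These correlations are descriptions, since libraries of a group share tissue, fraction and library series.

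**Figure D2:**
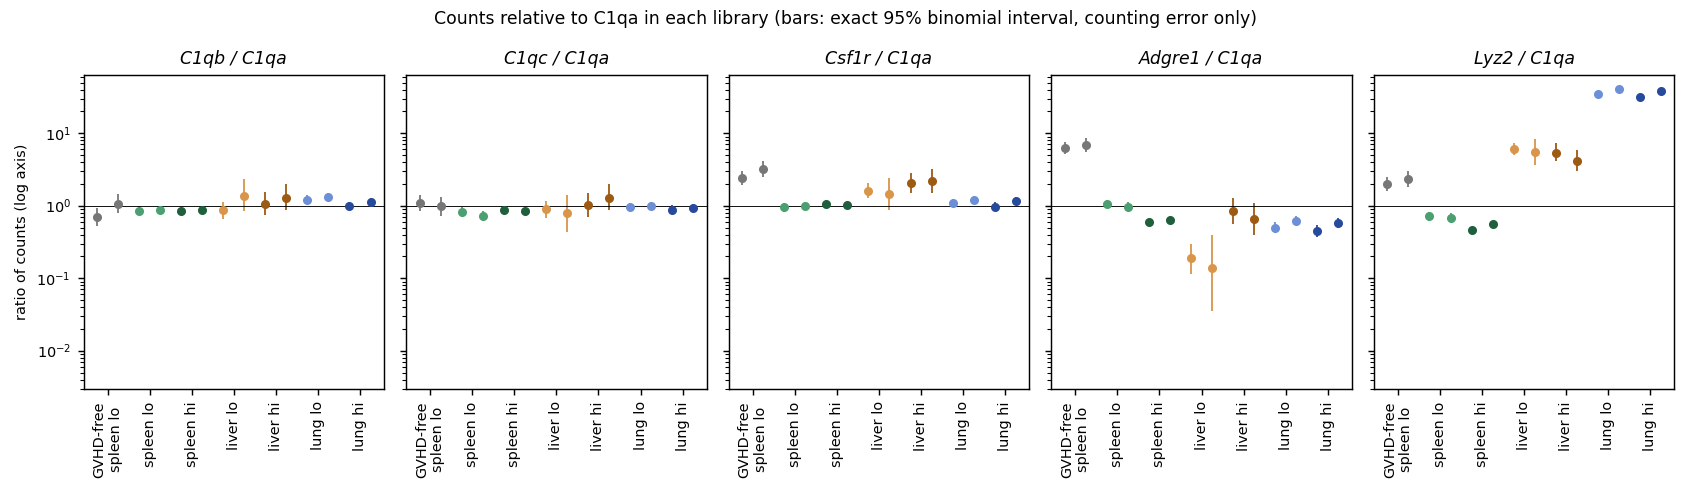
Counts of 5 genes divided by those of C1qa in each library, on a log axis, with exact 95% binomial intervals that cover counting error only. C1qb and C1qc stay between 0.691 and 1.38, and Csf1r is higher in GVHD-free spleen and in liver. Adgre1 runs from 0.138 to 6.78 and Lyz2 from 0.464 to 40.9.

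Csf1r encodes the receptor for the growth factors CSF1 and IL-34 that many macrophages need to survive. It stood at 18.1 and 20.8 CPM in GVHD-free spleen, 29.1 and 28.9 in cGVHD spleen PSGL1lo, 71.9 and 73.8 in spleen PSGL1hi, 5.70 and 1.77 in liver PSGL1lo, 5.30 and 3.44 in liver PSGL1hi, 19.5 and 28.6 in lung PSGL1lo, and 17.1 and 21.3 in lung PSGL1hi. Spleen PSGL1hi cells were again highest and liver lowest, but GVHD-free spleen overlapped both lung groups. Csf1r overlaps Hmgxb3, which lies on the opposite strand and measured 57.1 to 81.9 CPM. The sources used here do not say whether the counting used strand, so reads of this pair cannot be told apart and Csf1r is uncertain. Of its ligands Csf1 was abundant, with group means of 98.4 to 444 CPM, whereas Il34 did not exceed a group mean of 0.0702 CPM.

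Adgre1 encodes F4/80, the classical surface marker of mouse macrophages. It stood at 46.3 and 44.2 CPM in GVHD-free spleen, 32.5 and 28.5 in cGVHD spleen PSGL1lo, 41.4 and 45.8 in spleen PSGL1hi, 0.658 and 0.168 in liver PSGL1lo, 2.20 and 1.05 in liver PSGL1hi, 8.94 and 14.7 in lung PSGL1lo, and 7.91 and 10.6 in lung PSGL1hi. Unlike C1q it was not lower in GVHD-free than in cGVHD spleen PSGL1lo, and GVHD-free spleen and spleen PSGL1hi overlapped at the top. Its ratio to C1qa counts was 6.18 and 6.78 in GVHD-free spleen, 0.969 and 1.06 in spleen PSGL1lo, 0.605 and 0.630 in spleen PSGL1hi and 0.138 and 0.187 in liver PSGL1lo.

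Itgax encodes CD11c, an integrin chain of dendritic cells and alveolar macrophages that some activated lymphocytes also carry. It stood at 69.8 and 71.8 CPM in GVHD-free spleen, 23.4 and 24.6 in cGVHD spleen PSGL1lo, 42.6 and 43.4 in spleen PSGL1hi, 1.60 and 2.27 in liver PSGL1lo, 22.3 and 24.5 in liver PSGL1hi, 45.2 and 83.5 in lung PSGL1lo, and 74.2 and 95.3 in lung PSGL1hi. Liver PSGL1lo cells stood far below every other group, with no overlap. Liver PSGL1hi overlapped spleen PSGL1lo, and GVHD-free spleen lay within the range of lung PSGL1lo. Its partner chain Itgb2 had group means of 685 to 1646 CPM.

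Lyz2 encodes lysozyme M, an abundant secreted enzyme of macrophages and neutrophils. It stood at 14.9 and 15.1 CPM in GVHD-free spleen, 21.9 and 19.9 in cGVHD spleen PSGL1lo, 31.7 and 40.8 in spleen PSGL1hi, 21.2 and 6.65 in liver PSGL1lo, 14.1 and 6.67 in liver PSGL1hi, 633 and 965 in lung PSGL1lo, and 559 and 700 in lung PSGL1hi. The 4 lung libraries lay far above all the others, and the liver fractions overlapped each other. The near copy Lyz1 had at most 74 counts, or 5.31% of the Lyz2 counts in any library, so that a division of reads between these copies would move Lyz2 little.

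Chil3 encodes a chitinase-like protein, Ym1, that alveolar and alternatively activated macrophages secrete. It stood at 0.792 and 0.358 CPM in GVHD-free spleen, 30.8 and 33.7 in cGVHD spleen PSGL1lo, 77.8 and 84.7 in spleen PSGL1hi, 10.8 and 3.33 in liver PSGL1lo, 6.56 and 1.81 in liver PSGL1hi, 399 and 569 in lung PSGL1lo, and 365 and 507 in lung PSGL1hi. The gene was near the floor in GVHD-free spleen, and every cGVHD library lay above it without overlap. The near copy Chil4 had at most 4 counts, or 0.241% of the Chil3 counts.

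Mmp12 encodes macrophage elastase, a protease that degrades elastin in lung. It stood at 5.91 and 5.66 CPM in GVHD-free spleen, 0.596 and 1.31 in cGVHD spleen PSGL1lo, 1.73 and 2.20 in spleen PSGL1hi, and at 0.0725 to 0.421 CPM, from only 2 to 10 counts, in the 4 liver libraries. In lung it stood at 70.7 and 104 CPM in the PSGL1lo group and 61.4 and 86.7 CPM in the PSGL1hi group. Lung was the highest and liver the lowest, and GVHD-free spleen was above both cGVHD spleen groups without overlap. The ratio of Mmp12 to Lyz2 counts was 0.108 to 0.124 in the 4 lung libraries and 0.374 and 0.396 in GVHD-free spleen.

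Arg1 encodes arginase 1, an enzyme that consumes arginine in alternatively activated and suppressive myeloid cells. It had no counts in either GVHD-free library, which allows up to 0.183 and 0.215 CPM. It stood at 18.9 and 21.8 CPM in cGVHD spleen PSGL1lo, 40.05 and 45.1 in spleen PSGL1hi, 1.98 and 1.60 in liver PSGL1lo, 0.943 and 0.870 in liver PSGL1hi, 9.79 and 10.4 in lung PSGL1lo, and 5.14 and 5.25 in lung PSGL1hi. No 2 of the 7 groups overlapped. In both liver and lung the PSGL1lo cells had more Arg1 than the PSGL1hi cells, and in spleen they had less.

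The make-up of the signal differed between the organs as well as its amount. Lyz2, Chil3 and Mmp12 held 86.4% to 88.7% of the 10 genes' counts in lung, 22.3% to 23.9% in cGVHD spleen and 11.9% to 12.2% in GVHD-free spleen. C1qa, C1qb, C1qc and Csf1r held 44.8% to 52.3% in cGVHD spleen, 22.0% to 22.8% in GVHD-free spleen and 5.20% to 6.16% in lung. Adgre1 and Itgax held 65.3% to 65.7% in GVHD-free spleen, 41.0% to 57.9% in liver PSGL1hi and only 4.36% to 12.2% in liver PSGL1lo cells. In liver PSGL1lo cells the largest share was that of Lyz2, Chil3 and Mmp12, with 62.0% in replicate 1 and 51.8% in replicate 2.

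**Figure D3:**
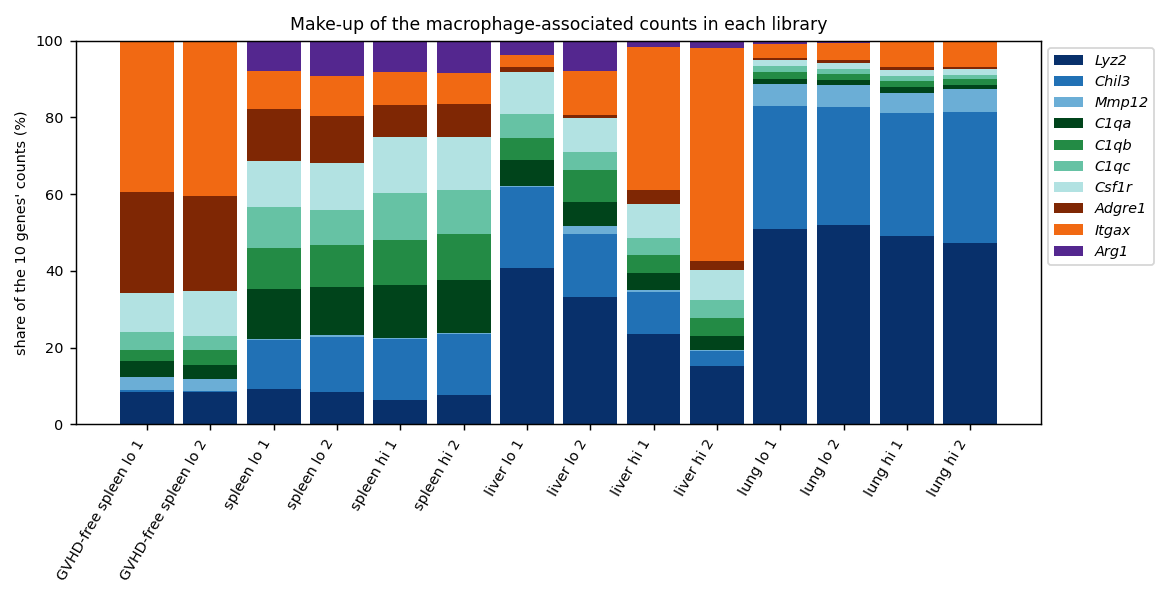
Share of each gene in the summed counts of the 10 genes, in percent, with 1 bar per library that adds up to 100. Lyz2, Chil3 and Mmp12 (blue) hold 86.4% to 88.7% in the lung libraries, and Adgre1 and Itgax (brown and orange) hold 65.3% to 65.7% in GVHD-free spleen.

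Between cGVHD and GVHD-free spleen, both as PSGL1lo cells, the C1q chains, Chil3 and Arg1 were higher in disease, while Mmp12, Itgax and Adgre1 were lower. C1qa rose 4.29-fold, C1qb 4.27-fold and C1qc 3.18-fold, by ratio of group means. Chil3 rose 56.1-fold from its level near the floor, and Arg1 was at least 94.8-fold higher, with the GVHD-free libraries set at 3 counts each. In all, 5 of the 10 genes were higher and 3 lower at an adjusted p under 0.05, where 14.7% of all genes tested were higher and 12.8% lower, 27.5% together. The median log2 change of the 10 genes, which holds the fitted value of Arg1, was 1.12, against 0.01 over all genes.

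The log2 change was 2.09 ± 0.23 (SE) for C1qa (adjusted p = 2.96e-07, from edgeR's quasi-likelihood fit to all 13780 genes, as for every adjusted p below). For C1qb it was 2.10 ± 0.21 (adjusted p = 7.36e-08) and for C1qc 1.66 ± 0.24 (adjusted p = 1.63e-05). Both libraries of each group lay on the same side for every chain. Chil3 changed by 5.76 ± 0.60 (adjusted p = 1.59e-07), on 13 and 5 counts in GVHD-free cells, and by 6.47 without GVHD-free replicate 1. Arg1 passed the test as well (adjusted p = 1.16e-13), where the fitted value depends on the model's prior count and is not a size. Mmp12 changed by -2.57 ± 0.41 (adjusted p = 4.22e-05), being 6.08-fold lower in cGVHD, on 8 and 20 counts there, and the value was -3.27 without cGVHD replicate 2. Itgax changed by -1.56 ± 0.19 (adjusted p = 1.56e-06), or 2.95-fold lower. Adgre1 changed by -0.57 ± 0.20 (adjusted p = 0.0357), but the call was lost when any of the 4 libraries was left out, where the value ran from -0.66 to -0.48, and with DESeq2, where it was -0.58. Lyz2, at 0.48 ± 0.37 (adjusted p = 0.381), and Csf1r, at 0.58 ± 0.25 (adjusted p = 0.0895), did not pass, but both did without the filter on low counts, with 0.48 and 0.59, and in a fit of these 2 groups alone, with 0.46 and 0.57.

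Other genes of these pathways were counted in the same comparison. Of 8 genes of alternative activation tested 5 were higher and none lower; Ccl24, a chemokine, stood at 8.15 CPM in disease against 0.962 CPM without it, and Retnla, which encodes the secreted protein RELM-alpha, at 9.20 against 0 CPM. Of 12 complement genes other than C1q 5 were higher and 1 lower, led by C4b with 3.97 ± 0.45. Of 6 genes of arginine metabolism 3 were higher and none lower, with 4.26 ± 0.46 for Slc7a2, a cationic amino acid transporter. Of 9 matrix metalloproteinases and inhibitors 3 were higher, among them Mmp19 at 2.62 ± 0.57, and 1, the inhibitor Timp2, was lower at -1.27 ± 0.10. The other 5 were not called in either direction. Mmp12 was thus the only protease called lower among those tested.

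Markers of other cells moved in the same comparison. B and plasma cell markers were lower for 6 of 7 tested, with a summed level of 73.2 to 75.4 CPM in GVHD-free cells, against 20.1 to 21.7 CPM in disease. Dendritic cell markers were higher for 2 and lower for 5 of 10, with a sum of 121 to 130 CPM without disease, against 58.1 to 59.9 CPM with it. Cd209a of that list stood at 8.16 and 0.0980 CPM and Flt3, the receptor that dendritic cells depend on, at 14.6 and 3.46 CPM. Erythroid markers were higher for 3 of 3 tested, with sums of 25.2 to 30.0 and 63.3 to 65.9 CPM, while the 4 haemoglobin genes of that list were at 0 in all libraries. The part of these cells in the changes of Itgax, Adgre1 and the other genes was not tested.

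In cGVHD spleen the genes were lower in PSGL1lo than in PSGL1hi cells. The 3 C1q chains, Csf1r, Chil3 and Arg1 were 2.09-fold to 2.64-fold lower by ratio of group means, and Itgax 1.79-fold lower. In all, 8 of the 10 genes were lower, where 15.8% of all genes tested were higher and 16.7% lower, 32.5% together. The median log2 change of the 10 genes was -1.14, against 0 over all genes.

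The log2 change was -1.23 ± 0.19 for C1qa (adjusted p = 3.03e-05), -1.23 ± 0.17 for C1qb (adjusted p = 8.84e-06) and -1.40 ± 0.20 for C1qc (adjusted p = 1.75e-05). Csf1r changed by -1.33 ± 0.23 (adjusted p = 0.000111), which is close to the C1q chains. Arg1 changed by -1.06 ± 0.14 (adjusted p = 4.98e-06) and Itgax by -0.84 ± 0.19 (adjusted p = 0.00177). Chil3 changed by -1.33 ± 0.29 (adjusted p = 0.00111), a call that DESeq2 did not make although its value was -1.32. Adgre1 changed by -0.52 ± 0.20 (adjusted p = 0.047) and lost the call when any of the 4 libraries was left out, with values of -0.61 to -0.43, as well as under other scalings, with -0.51 and -0.50. Lyz2, at -0.80 ± 0.32 (adjusted p = 0.0643), and Mmp12, at -1.02 ± 0.47 (adjusted p = 0.106), did not pass, although their libraries did not overlap. Both passed without the filter, with -0.80 and -1.02, and Lyz2 in a fit of the groups compared alone, with -0.79.

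In the same comparison 9 of 16 general macrophage markers were lower and none higher, with sums of 183 to 193 CPM against 349 to 354 CPM in the PSGL1hi libraries. They included Mrc1, the mannose receptor, at -1.39 ± 0.16, and Siglec1, a sialic acid receptor of metallophilic macrophages, at -1.66 ± 0.28. Of 9 Kupffer cell and red pulp markers 5 were lower and none higher, with sums of 128 to 139 and 273 to 279 CPM. Spic, the factor that red pulp macrophages depend on, was among them at -1.02 ± 0.37 and Vcam1, an adhesion molecule, at -1.25 ± 0.14. Of 12 complement genes 7 were lower and none higher. CD8 T cell markers were lower for 2 of 2, with sums of 11.8 to 12.3 CPM against 77.5 to 77.6 CPM, and NK cell markers for 4 of 4 tested, with sums of 81.8 to 84.3 against 159 to 164 CPM. The NK cell list shares Fcgr3 with the general macrophage list, so that this gene counts in both, in every comparison. Monocyte and neutrophil markers were lower for 2 of 13 and higher for none, with sums of 124 to 131 against 579 to 668 CPM, of which Ccr2, a chemokine receptor that T cells also carry, made up 537 CPM on average in PSGL1hi cells. Dendritic cell markers were higher for 1 and lower for 4 of 10, with sums of 58.1 to 59.9 against 132 to 133 CPM. Of that list Siglech, a marker of plasmacytoid dendritic cells, stood at 23.3 CPM in the PSGL1hi group and 0.107 CPM in the PSGL1lo group. The part of these other cells in the lower levels of the 8 genes was not tested.

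In liver the fractions differed in fewer of the genes, and the summed level of the 10 genes was the lowest of the organs. Itgax was 12.1-fold lower in PSGL1lo than in PSGL1hi cells. Adgre1 was 3.93-fold lower and Arg1 1.97-fold higher, while the C1q chains and Csf1r overlapped between the fractions. In all, 1 of the 10 genes was higher and 2 were lower, where 8.5% of all genes tested were higher and 12.3% lower, 20.8% together. The median log2 change of the 10 genes was 0.17, against -0.02 over all genes.

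Itgax changed by -3.63 ± 0.26 (adjusted p = 1.1e-09) and kept its call in every alternative that was run. Adgre1 changed by -1.78 ± 0.47 (adjusted p = 0.0097). It stood at -3.18 without liver PSGL1lo replicate 1 and did not pass without replicate 2 of that group, with -1.26, or without PSGL1hi replicate 1, with -1.20. Arg1 changed by 0.999 ± 0.25 (adjusted p = 0.006) and did not pass without PSGL1lo replicate 1, with 0.82, or without PSGL1hi replicate 2, with 0.93. Neither of the last genes passed with limma voom, with -1.93 for Adgre1 and 0.99 for Arg1, or in a fit of the liver libraries alone, with -1.84 and 1.01.

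The values of the other 7 genes in liver ran from -0.12 for Csf1r to 0.91 for Chil3 and none passed the test. Several of them turned or moved with a single library, and Chil3 stood at 2.04 without PSGL1hi replicate 1. Without PSGL1lo replicate 2, Lyz2 passed at 1.06, C1qa at 0.77 and Chil3 at 1.44. Without PSGL1lo replicate 1, C1qc passed at -1.27 and Csf1r at -1.28, in the opposite direction, and Lyz2 stood at -0.61 without passing. General macrophage markers were higher in PSGL1lo cells for 1 of 16 and lower for none, with a median log2 change of -0.42. Their sums were 86.4 to 95.1 CPM in PSGL1lo and 69.1 to 74.9 CPM in PSGL1hi cells. Hepatocyte markers were higher in PSGL1lo cells for 4 of 6 tested, with sums of 54.5 to 63.1 CPM against 26.9 to 29.9 CPM. CD8 T cell markers were lower for 2 of 2, with sums of 28.0 to 31.5 CPM against 141 to 142 CPM, and NK cell markers for 3 of 4, with sums of 163 to 175 against 248 to 258 CPM. Monocyte and neutrophil markers were lower for 2 of 13 and higher for none, with sums of 222 to 310 against 629 to 704 CPM. The sums in PSGL1hi cells rested mostly on Ccr2, which T cells also carry. The median log2 change of that list was 0.59, the other way from its sum. Immediate early and stress genes were higher for 5 and lower for 1 of 9. The part of these cells and genes in the liver values was not tested.

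In lung most of the 10 genes did not differ between the fractions beyond the spread between the libraries. Arg1 was 1.94-fold higher in PSGL1lo than in PSGL1hi cells and C1qb 1.41-fold higher. These 2 of the 10 genes passed the test, where 12.9% of all genes tested were higher and 20.1% lower, 33% together. The median log2 change of the 10 genes was 0.32, against -0.03 over all genes, and under scaling by total counts alone the median of all genes moved to 0.12.

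Arg1 changed by 0.96 ± 0.16 (adjusted p = 6.58e-05) and kept its call in every alternative that was run. C1qb changed by 0.49 ± 0.17 (adjusted p = 0.0306), and did not pass without PSGL1lo replicate 2, with 0.26, without PSGL1hi replicate 1, with 0.38, or without PSGL1hi replicate 2, with 0.61. C1qa at 0.21 ± 0.20 (adjusted p = 0.446) and C1qc at 0.32 ± 0.21 (adjusted p = 0.262) did not pass. Itgax at -0.40 ± 0.17 (adjusted p = 0.0791) did not pass either, but it did without PSGL1lo replicate 2, with -0.86, without PSGL1hi replicate 1, with -0.58, with limma voom, with -0.46, and without the filter on low counts, with -0.40. Lung PSGL1lo replicate 2 was the higher of its pair for all 10 genes. It also held 88.3 CPM of lung epithelium markers, against 6.70 CPM in replicate 1 and 36.9 to 45.9 CPM in the PSGL1hi libraries. Immediate early and stress genes were lower in lung PSGL1lo cells for 6 of 9, CD8 T cell markers for 2 of 2, with sums of 12.1 to 12.4 against 28.5 to 30.6 CPM, and NK cell markers for 3 of 4. Monocyte and neutrophil markers were lower for 3 of 13, with sums of 134 to 151 against 641 to 650 CPM. The sums in PSGL1hi cells again rested mostly on Ccr2, and the median log2 change of that list was -0.12. Dendritic cell markers were higher for 1 and lower for 2 of 10, with sums of 53.8 to 57.4 against 142 to 156 CPM. General macrophage markers were higher for 1 of 16 and lower for none, with sums of 359 to 437 against 261 to 306 CPM. The part of these differences in the values above was not tested.

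**Figure D4:**
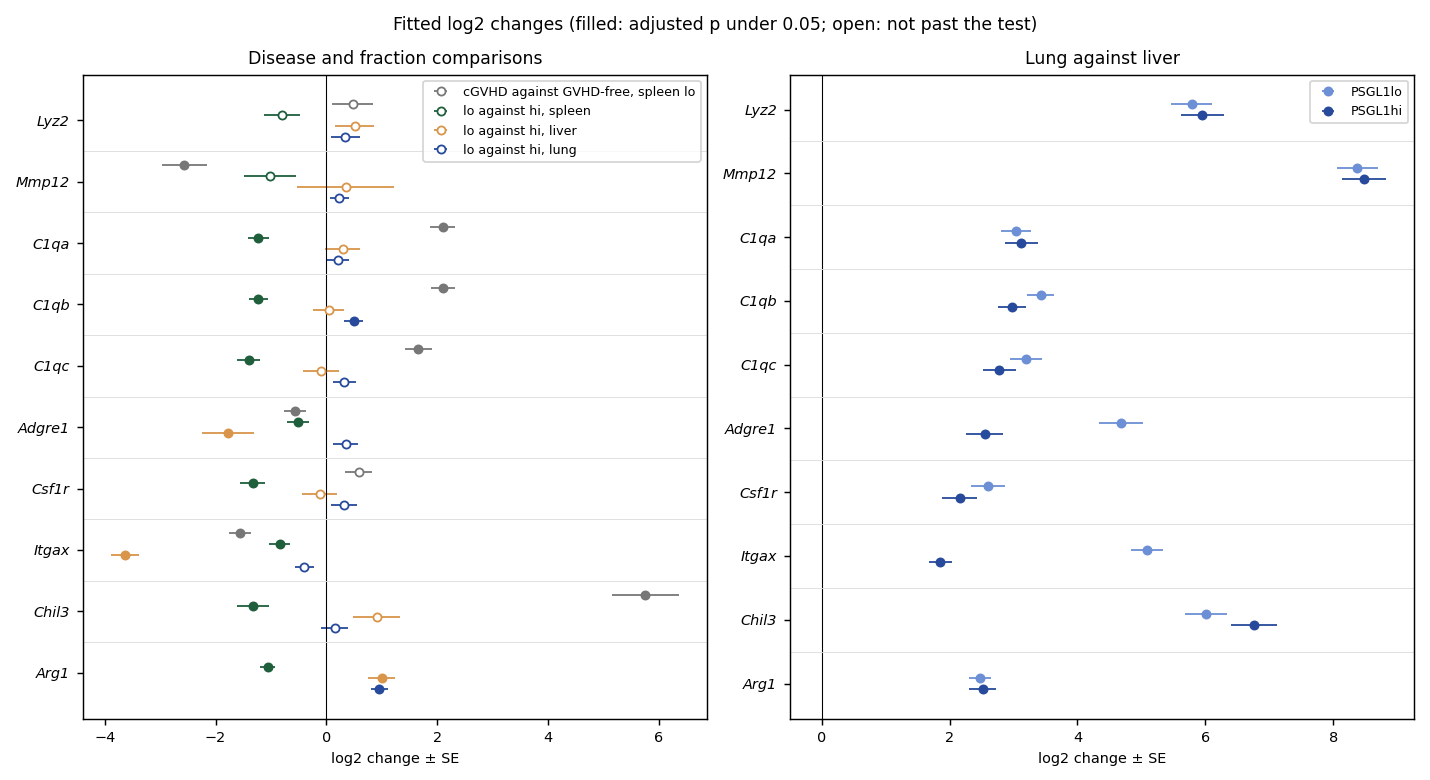
Fitted log2 changes ± SE of the 10 genes, on the left between cGVHD and GVHD-free spleen PSGL1lo cells and between PSGL1lo and PSGL1hi cells of each tissue, on the right between lung and liver in each fraction; filled points passed at an adjusted p under 0.05. The change of Arg1 with disease is not drawn, since it had no counts in GVHD-free cells. The spleen fraction changes lie below 0 for all 10 genes and the lung against liver changes above 0.

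Lung cells held more of every gene than liver cells in both fractions. In PSGL1lo cells Lyz2 was 57.5-fold higher, Chil3 68.2-fold, Itgax 33.2-fold, Adgre1 28.6-fold, Csf1r 6.45-fold and Arg1 5.65-fold. The C1q chains were 8.77-fold to 11.2-fold higher. All 10 genes were higher in PSGL1lo cells, where 19.6% of all genes tested were higher and 39.9% changed in either direction. All 10 were higher in PSGL1hi cells as well, where 20.1% were higher and 38.4% changed. The median log2 change was 4.05 in PSGL1lo and 2.88 in PSGL1hi cells, against 0 to 2 decimals over all genes in both, although scaling by total counts alone moved the median of all genes in PSGL1hi cells to -0.14.

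In PSGL1lo cells the log2 change was 5.78 ± 0.33 for Lyz2 (adjusted p = 8.16e-12), 6.01 ± 0.33 for Chil3 (adjusted p = 6.19e-12) and 8.38 ± 0.32 for Mmp12 (adjusted p = 2.61e-14), the last against only 5 and 10 counts in liver. The C1q chains changed by 3.04 ± 0.24 (C1qa), 3.43 ± 0.21 (C1qb) and 3.20 ± 0.26 (C1qc). On the same log2 scale the C1q chains thus had smaller changes than Lyz2, Chil3 and Mmp12, a difference between genes that was not tested. Itgax changed by 5.09 ± 0.25, Adgre1 by 4.67 ± 0.34, Csf1r by 2.60 ± 0.27 and Arg1 by 2.47 ± 0.18. In PSGL1hi cells Lyz2 changed by 5.95 ± 0.34, Chil3 by 6.77 ± 0.36 and Mmp12 by 8.49 ± 0.34, while the C1q chains changed by 2.78 to 3.12. Itgax changed by 1.85 ± 0.18 there and Adgre1 by 2.55 ± 0.29, smaller than in PSGL1lo cells by the test of the difference below. Every call in both fractions was kept in all alternatives that were run, but the sizes depended on single liver libraries. Without liver PSGL1lo replicate 1 the PSGL1lo values were 6.90 for Lyz2, 7.18 for Chil3, 7.67 for Mmp12, 4.08 for C1qa, 4.37 for C1qc, 6.07 for Adgre1 and 3.75 for Csf1r, and without replicate 2 Mmp12 was 9.20. Without liver PSGL1hi replicate 1 the PSGL1hi values were 6.56 for Lyz2, 7.91 for Chil3 and 9.89 for Mmp12, and without replicate 2 they were 6.05 for Chil3 and 7.66 for Mmp12.

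Markers of alveolar macrophages were higher in lung than in liver for 9 of 9 tested in PSGL1lo and 8 of 9 in PSGL1hi cells. Their sum was 48.6 to 80.2 CPM in the lung libraries and 2.79 to 26.8 CPM in all others, with Car4, a carbonic anhydrase, and Krt79, a keratin, at 0 outside lung. A gene at 0 outside lung can pass the filter on low counts only through the lung libraries, so that its direction was set in advance. Plet1, a surface protein of alveolar macrophages, reached 23.2 CPM in lung PSGL1lo cells and at most 0.373 CPM as a group mean outside lung. Siglecf, the surface marker by which alveolar macrophages are usually sorted, was low, at 2.57 and 2.43 CPM in the lung groups against 0.571 and 2.03 CPM in the liver groups. Of 16 general macrophage markers 14 were higher in lung and none lower in each fraction. Of 9 Kupffer cell and red pulp markers 2 were higher and 5 lower in PSGL1lo cells, and Clec4f, the lectin that defines Kupffer cells, stood at 1.65 and 1.70 CPM in the liver groups and at 0 in lung.

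Complement genes other than C1q were higher in lung for 10 of 12 in PSGL1lo and 11 of 12 in PSGL1hi cells, led in PSGL1lo by C3ar1, the C3a receptor, with 5.64 ± 0.47. Of 9 matrix metalloproteinases and inhibitors 7 were higher and 1 lower in PSGL1lo cells; Mmp19 changed by 9.16 ± 0.47 from 0.0421 CPM in liver, and the lower gene, Mmp9, a gelatinase, stood at 8.16 CPM in lung and 116 CPM in liver. Slc7a2 stood at 40.3 CPM in lung and 0.0211 CPM in liver PSGL1lo cells. Monocyte and neutrophil markers went the other way, with 1 higher and 11 lower of 13 in PSGL1lo cells.

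Lists of other cells and of immediate early and stress genes separated lung from liver as well. Lung epithelium markers were higher for 5 of 6 in each fraction, led by Scgb1a1, the club cell secretoglobin, at 40.3 CPM in the PSGL1lo group and 34.6 CPM in the PSGL1hi group. The immediate early and stress genes were higher for 6 and lower for 2 of 9 in PSGL1lo cells and higher for 8 of 9 in PSGL1hi cells. Among them Hspa1a, which shares reads with its near copy Hspa1b, stood at 1134 CPM in lung and 3.61 CPM in liver PSGL1lo cells. Hepatocyte markers were lower for 5 of 6 in PSGL1lo and 4 of 6 in PSGL1hi cells, with Alb at 35.3 and 14.7 CPM in the liver groups and at 0 or 0.0216 CPM in lung. A gene at 0 outside a single organ can pass the filter on low counts only through that organ, so that its direction was set in advance. Sftpa1, Sftpb, Sftpc and Sftpd of the lung epithelium list were at 0 in all groups outside lung. Of the hepatocyte list Ttr and Serpina1a were at 0 in all groups outside liver. The part of these other cells, and of the stress genes, in the lung values was not tested.

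**Figure D5:**
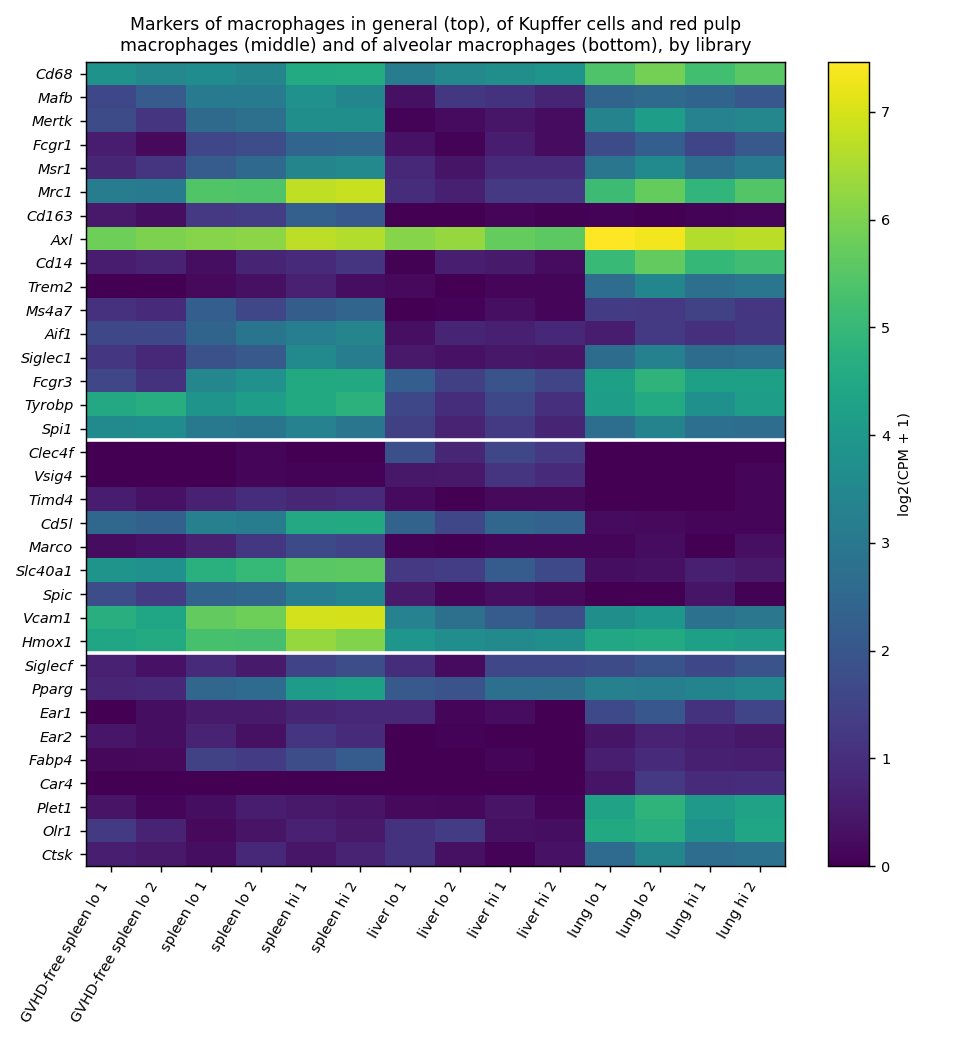
Levels of macrophage markers that are not among the 10 genes, as log2(CPM + 1) in colour, with 1 column per library and white lines between the general, the Kupffer cell and red pulp, and the alveolar markers. Cd14, Trem2, Plet1, Olr1 and Ctsk stand out in lung, Mrc1, Vcam1, Slc40a1 and Cd5l in spleen PSGL1hi cells and Clec4f in liver.

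The fraction effect differed between tissues for several genes. Against spleen, the lung effect was higher for 7 of the 10 genes, where 5.51% of all genes tested were higher and 16.6% differed in either direction. The difference of log2 changes was 1.44 ± 0.27 for C1qa (adjusted p = 0.000773), 1.72 ± 0.24 for C1qb (adjusted p = 3.33e-05), 1.72 ± 0.29 for C1qc (adjusted p = 0.000277) and 2.02 ± 0.21 for Arg1 (adjusted p = 1.22e-06). These genes were lower in PSGL1lo than in PSGL1hi cells of spleen but not of lung. Csf1r differed by 1.65 ± 0.33 (adjusted p = 0.0012), Chil3 by 1.48 ± 0.38 (adjusted p = 0.00938) and Adgre1 by 0.87 ± 0.30 (adjusted p = 0.0492). Of these 7 calls 3, those of C1qb, C1qc and Arg1, were kept in all alternatives. C1qa and Csf1r were lost with DESeq2, with 1.44 and 1.65. Chil3 was lost with DESeq2, with 1.48, without spleen PSGL1lo replicate 1, with 1.41, and without lung PSGL1hi replicate 1, with 1.26. Adgre1 was lost without any single spleen library, with 0.77 to 0.99, without lung PSGL1lo replicate 2, with 0.52, and without lung PSGL1hi replicate 1, with 0.67. Lyz2 and Mmp12, which did not pass, did so without lung PSGL1lo replicate 1, with 1.41 and 1.5, and Mmp12 without lung PSGL1hi replicate 2, with 1.52. Itgax passed without lung PSGL1lo replicate 1, with 0.82.

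Against spleen, the liver effect was higher for 5 genes and lower for 1, where 2.64% of all genes tested were higher and 4.2% lower, 6.84% together. Arg1 differed by 2.06 ± 0.28 (adjusted p = 0.000191) and Itgax by -2.79 ± 0.33 (adjusted p = 4.01e-05), and both kept their calls in all alternatives. The calls of C1qa at 1.52 ± 0.37 (adjusted p = 0.0157), C1qb at 1.27 ± 0.32 (adjusted p = 0.0208), C1qc at 1.30 ± 0.39 (adjusted p = 0.0456) and Chil3 at 2.24 ± 0.51 (adjusted p = 0.0109) rested on liver PSGL1lo replicate 1, without which they were 0.49, 0.72, 0.13 and 1.08 and did not pass. They were also lost without liver PSGL1hi replicate 2, with 1.18, 1.05, 1.11 and 1.52, and Chil3 was 3.37 without replicate 1 of that group. Without a single spleen library C1qa fell out at 1.49 and 1.499 (PSGL1lo or PSGL1hi replicate 2), C1qb at 1.21 to 1.27 (any but PSGL1hi replicate 1) and C1qc at 1.19 to 1.42 (any). C1qc was lost without liver PSGL1hi replicate 1 too, with 1.49. Lyz2 passed without liver PSGL1lo replicate 2, with 1.86, or PSGL1hi replicate 1, with 1.91, and Csf1r without PSGL1lo replicate 2, with 1.73.

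Between lung and liver the fraction effect differed for 2 of the 10 genes, where 2.08% of all genes tested were higher and 3.9% lower, and 5.98% differed in either direction. Itgax differed by 3.23 ± 0.32 (adjusted p = 1.3e-06), a call kept in all alternatives. Adgre1 differed by 2.12 ± 0.52 (adjusted p = 0.0155) stood at 3.52 without liver PSGL1lo replicate 1, and did not pass without replicate 2 of that group, with 1.60, or without liver PSGL1hi replicate 1, with 1.54. Without liver PSGL1lo replicate 1, C1qc passed at 1.59 and Csf1r at 1.60, and without replicate 2 Chil3 passed at -1.29. For Arg1 the value was -0.04 ± 0.27 (adjusted p = 0.974), so that a difference between the liver and the lung effect was not detected.

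The genes with the most similar patterns were sought over all 14 libraries, by Pearson's r of log2(CPM + 1). These are descriptions over libraries that share tissue, fraction and library series. Nearest to the mean of the C1q chains were Igf1, a growth factor, with r = 0.992, Wfdc17 with 0.991 and Mrc1 with 0.986, where 0.298% of the genes tested had an r above 0.9. Slco2b1, Slc11a1, Lgmn, Pla2g2d, Trf, Ms4a7 and Fcgr4 followed with 0.951 to 0.971. Nearest to Csf1r were Fmnl2, Clec4a3, Sdc3, Fcgr4 and Lgmn, the last pair being shared with C1q. Nearest to Lyz2 were Cxcl2, a neutrophil chemokine, with 0.989, Cd36, a scavenger receptor, with 0.987, Il1a, Hspa1a and Hspa1b. Among the nearest to Mmp12 were Tlr2, Acod1, Itga5 and Bst1, and nearest to Chil3 Ms4a8a, the lipid droplet gene Plin2, Lpl, Mgst1 and Slc7a2. Adgre1 was nearest to Pld4 with 0.988, Ifi207, Sh2d1b1, the class II gene H2-Ab1 and Slc8a1. Arg1 was nearest to the complement gene C4b with 0.970, and to Gda, Arl14ep, Trf and Slc17a6. Itgax had the lowest best match, Tnfrsf21 with 0.932, followed by Pdlim5, Atf3, Tubb6 and Gpr137b.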

How the data were processed

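RNA from 14 libraries of sorted mouse CD4+ T cells was analysed, 2 for each of 7 groups taken from the sample labels. The authors deposited raw counts for each gene, with TopHat2 2.0.8, HTSeq and mm9 named in the submitters' processing notes. The annotation and strand setting used are not given in these sources. From the counts edgeR 4.0.16 in R 4.3.3 was used for filterByExpr, which kept 13780 genes, TMM scaling, and a quasi-likelihood fit with 1 mean per group over all libraries, with 7 residual degrees of freedom and a common coefficient of variation of 7.35%. Tests were 2-sided with Benjamini-Hochberg adjustment over all genes tested, and calls were made at an adjusted p under 0.05. Standard errors come from the F statistic, and CPM use the library totals, 13222005 to 33532595 counts, multiplied by the TMM factors. All 10 genes are named in every comparison. Of 21 lists of other genes, up to 4 called genes with the largest changes and no overlap between the groups were eligible to be named; others named here by level were chosen after their values were seen. Similar genes are the 10 nearest to the C1q mean and the 5 nearest to each other gene; a few of the genes these rules name are not reported here. The genes and lists were chosen with earlier results of these data known. Alternatives used DESeq2 1.42.0, limma 3.58.1, other scalings, no filter, a replicate block, a 1.5-fold threshold, fewer groups and each library left out. Replicate numbers are not tied to animals or batches in the labels. Lengths are merged exons of GENCODE M21 and serve only for levels per kilobase.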

Additional observations from a re-analysis of the deposited data

Results flagged for a closer look

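For 15 combinations of gene and tissue pair, the PSGL1lo effect differed between tissues by a test of the difference itself (edgeR, 2 libraries per group). Over all genes tested 5.98% differed between lung and liver, 16.6% between lung and spleen and 6.84% between liver and spleen. Only some of these calls were kept in all alternatives. They were Itgax between lung and liver, C1qb, C1qc and Arg1 between lung and spleen, and Arg1 and Itgax between liver and spleen. Between lung and liver the log2 difference of the effects was 3.23 for Itgax (adjusted p = 1.3e-06) and 2.12 for Adgre1 (adjusted p = 0.0155).

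Between lung and spleen the effects differed by 1.44 for C1qa, 1.72 for C1qb and 1.72 for C1qc. They differed by 1.65 for Csf1r, 0.87 for Adgre1, 1.48 for Chil3 and 2.02 for Arg1. Between liver and spleen they differed by 1.52 for C1qa, 1.27 for C1qb and 1.30 for C1qc, by 2.24 for Chil3, by 2.06 for Arg1 and by -2.79 for Itgax. Each effect was taken within a library series, but in the pairs with spleen the tissue cannot be told apart from the series.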

How the results depend on the processing

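Of 1199 repeats of a gene's result under another setting, 1027 kept direction and call, 55 gained a call, 78 lost one and 39 changed sign; the cause was not tested. The number of the 10 genes called was within 1.5 times of the reported one for disease (7 to 10), spleen fractions (6 to 10) and lung against liver (10 throughout). In liver it was 3 as reported, 5 without the filter or with the replicate block, and 1 with limma voom, the 1.5-fold threshold or the liver libraries alone. In lung it was 2, and 5 without the filter, 4 with the replicate block and 1 with the 1.5-fold threshold. For the difference between lung and liver effects it was 2, and 1 with limma voom, the 1.5-fold threshold or fewer groups. For lung against spleen it was 7, and 3 with DESeq2. For liver against spleen it was 6, and 3 with DESeq2 or limma voom and 2 with the 1.5-fold threshold. Leaving out each library in turn gave 2 to 5 genes in liver, 1 to 3 in lung, 1 to 4 for lung against liver effects, 5 to 10 for lung against spleen and 2 to 8 for liver against spleen.

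Signs changed only where no call was made: with the block for C1qb in liver (-0.039) and C1qa between lung and liver effects (0.057), and there with total counts for C1qa (0.0014) and Arg1 (0.040) and with DESeq2 for C1qa (0.0013). Without 1 library at a time they changed for the genes below, over ranges that include the calls named above. In liver these ranges were -0.61 to 1.11 for Lyz2, -0.48 to 1.75 for Mmp12, -0.75 to 0.77 for C1qa, -0.50 to 0.35 for C1qb, -1.27 to 0.41 for C1qc, -1.28 to 0.40 for Csf1r and -0.26 to 2.04 for Chil3. In lung they were -0.019 to 0.50 for Mmp12, -0.0040 to 0.66 for Adgre1 and -0.082 to 0.40 for Chil3. For the lung and liver effects they were -0.77 to 0.95 for Lyz2, -1.51 to 0.71 for Mmp12, -0.56 to 0.96 for C1qa, -0.096 to 1.59 for C1qc, -0.080 to 1.60 for Csf1r, -1.89 to 0.41 for Chil3 and -0.16 to 0.13 for Arg1. For the lung and spleen effects the range was -0.016 to 0.82 for Itgax.

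The replicate block held a separate term for each tissue, so its lung against liver values refer to replicate 1 and are not block-adjusted differences. In PSGL1lo cells these values lay over 1.5 times from the reported ones for Lyz2 (5.06), Chil3 (5.19), Adgre1 (3.97) and Csf1r (1.998). In PSGL1hi cells this held for Lyz2 (5.11), Chil3 (5.82), C1qa (2.49), C1qc (2.16), Adgre1 (1.69) and Csf1r (1.41), calls kept. The block kept the calls of 74 of 90 values and added 14. Same-numbered deviations of paired groups correlated at -0.156 to 0.175. The 1.5-fold threshold left 1181 of 3791 genes called for disease, 776 of 4482 in spleen, 472 of 2866 in liver and 1034 of 4548 in lung. It left 1308 of 5505 and 1165 of 5286 for lung against liver, and 107 of 824, 329 of 2282 and 48 of 943 for the differences of effects (lung-liver, lung-spleen, liver-spleen). Those 943 were 330 to 2499 without single libraries and 591 with fewer groups, the 824 were 475 to 1320, the 2282 fell to 1517 and the 2866 to 1552 without single libraries. Scaling by total counts moved the share of higher calls from 40.9% to 55.9% in liver, 39.0% to 65.5% in lung, 52.3% to 32.9% for lung against liver PSGL1hi, and 34.8% to 52.7%, 33.3% to 60.5% and 38.6% to 51.8% for the differences of effects. Liver values of Mmp12 rest on 2 to 10 counts and set no size; with 2 libraries per group small changes were not detectable.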

Other observations

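Of the 13 monocyte and neutrophil markers, whose sum was higher in PSGL1hi than in PSGL1lo cells of every organ and rested mostly on Ccr2 there, 3 neutrophil genes were highest in liver, where the sum of the 10 macrophage genes was lowest. Ngp, a granule gene, stood at 17.7 CPM in the PSGL1lo and 8.78 CPM in the PSGL1hi group, against 0.133 to 2.32 CPM as group means elsewhere. Mpo, myeloperoxidase, stood at 7.28 and 3.51 CPM in the liver groups and at 0.0216 to 0.993 CPM elsewhere. S100a9, a calcium-binding protein of neutrophils, stood at 24.2 and 12.8 CPM in liver and at 1.09 to 4.82 CPM elsewhere. The 3 genes were chosen after their values were seen, and liver and spleen differ in library series.

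Cebpa, a factor of the myeloid lineage, stood at 88.8 CPM in GVHD-free spleen and 0.600 to 11.5 CPM as group means in the cGVHD groups, and its log2 change with disease was -2.94 ± 0.15 (called by edgeR). Cd163, a haemoglobin scavenger receptor, followed the C1q chains in spleen, with 0.321 CPM in GVHD-free, 1.45 CPM in cGVHD PSGL1lo and 3.52 CPM in PSGL1hi cells, but not in lung, where its group means were 0.0212 and 0.0608 CPM.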
